A study of Mus musculus with 2 samples.

Results

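Cluster 9 was 1 of 10 clusters of bipolar cells in a droplet single-cell RNA-seq survey of the adult mouse retina, and its members were all cells that the deposited cell table named bipolar (BC) with cluster number 9. The rule gave 685 cells of 5743 bipolar cells and of 30943 cells in all. The survey held 1 library for each of 2 genotypes, from mice at P30, that is 30 days after birth. The Ptbp1-KO mouse was Chx10-Cre;Ptbp1lox/lox, in which Cre made in retinal progenitors removes the Ptbp1 promoter and first exon, so that all cells descended from those progenitors can carry the deletion. The Ptbp1-Ctrl mouse carried Chx10-Cre without the floxed allele, so the Cre transgene was shared by both. Cluster 9 held 390 cells with 1528786 unique molecular identifiers (UMIs) in Ptbp1-Ctrl and 295 cells with 1402419 UMIs in Ptbp1-KO.

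With 1 mouse per genotype there was no replicate, and genotype, mouse and library cannot be told apart. No test between genotypes was run. Levels below are UMIs summed over the cells of a library and scaled to a common total of 1000000, in CPM, and every interval is a 95% interval that covers counting error only. Comparisons of cluster 9 with the other 9 bipolar clusters are descriptions, because the authors drew the clusters from the same genes.

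Bipolar cells carry the signals of photoreceptors to amacrine and ganglion cells. ON bipolar cells, among them the rod bipolar cells, sense glutamate through the metabotropic receptor mGluR6 and the channel Trpm1, and are excited when light comes on. OFF cone bipolar cells sense it through AMPA and kainate receptors, and are excited when light goes off. The mouse has several OFF types, named 1A, 1B, 2, 3A, 3B and 4, whose axons end at different depths of the inner retina.

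Median depth was 3602 UMIs a cell in Ptbp1-Ctrl and 4445 in Ptbp1-KO, and the median mitochondrial share was 2.82% and 2.55%. Across the 2 libraries 63 cell barcodes recurred. The study's methods name female mice, but in cluster 9 Xist had 0 UMIs in both libraries, which allows up to 1.962 CPM in the control and 2.14 CPM in the knockout. The 4 Y-linked genes Ddx3y, Eif2s3y, Kdm5d and Uty lay between 53.0 and 210 CPM in both, so the counts went against the stated sex in both libraries alike. Markers of amacrine, horizontal, ganglion, microglial and endothelial cells (5 lists, 19 genes) were near 0, with list sums from 3.57 to 36.4 CPM.

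Cluster 9 had the receptor genes of OFF cone bipolar cells, and lower levels of ON genes than the other bipolar clusters together. Grik1, the kainate receptor subunit of OFF cone bipolar cells, was at 3605 CPM (3510 to 3701) in Ptbp1-Ctrl and 3086 CPM (2995 to 3179) in Ptbp1-KO. Over the other bipolar clusters together it was at 1119 and 938 CPM. The higher mean was not a property of cluster 9 alone. Cluster 18 held Grik1 at 10235 and 10232 CPM and cluster 21 at 3195 and 2177 CPM, while each of the other 7 clusters stayed at or below 318 CPM.

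The other genes given as markers of these cells were less particular to them. Vsx1, a homeobox factor of cone bipolar cells, was at 159 CPM (140 to 180) and 226 CPM (202 to 252), and clusters 19 (602 and 630 CPM) and 11 (335 and 318 CPM) were higher. Scgn, the calcium-binding protein secretagogin, was at 437 CPM (404 to 471) and 599 CPM (559 to 641), and Cabp5, a calmodulin-like protein, at 517 CPM (482 to 555) and 568 CPM (529 to 608). Both had at least 1 other bipolar cluster above cluster 9 in each library, with 812 and 886 CPM of Scgn in cluster 13 and 1238 and 1357 CPM of Cabp5 in cluster 12. Thinned to 1000 UMIs a cell, 66.8% of the Ptbp1-Ctrl and 65.4% of the Ptbp1-KO cells of cluster 9 held a Grik1 UMI, against 19.0% and 17.5% in the other bipolar clusters, whose median depths before thinning were 2718 and 3776 UMIs.

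ON and rod bipolar genes were low. Grm6, which encodes mGluR6, was at 146 CPM in the control cells and 116 CPM in the knockout cells, against 394 and 379 CPM in the other clusters. Isl1, a LIM homeobox factor of ON cells, was at 132 and 138 CPM against 498 and 537 CPM. Prkca, the protein kinase C alpha that marks rod bipolar cells, was at 495 and 469 CPM against 2842 and 2980 CPM.

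By list, 5 of 6 ON genes with enough counts, 5 of 5 rod bipolar genes and 6 of 7 genes of the mGluR6 cascade were more than 2-fold below the other bipolar clusters in both libraries, where 4.6% of 2238 genes were. In the other direction 4.47% of the genes lay more than 2-fold above. Of 9 ionotropic glutamate receptor genes 6 did so, as did 5 of 10 genes for GABA and glycine receptors, 12 of 26 genes for cell adhesion and wiring and 3 of 18 bipolar transcription factors. More than 2-fold below were 4 of the same 26 and 4 of the same 18 genes. None of 14 ribbon synapse genes passed 2-fold in either direction.

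Among the glutamate receptors, the AMPA subunit gene Gria4 was at 397 CPM and 406 CPM in the control and knockout cells against 101 and 109 CPM in the other clusters. Grik2, a second kainate subunit, was at 162 and 185 CPM against 13.8 and 13.6 CPM. Neto1, an auxiliary subunit of kainate receptors, was at 856 and 963 CPM against 21.4 and 18.7 CPM. The NMDA receptor gene Grin2b was higher too, at 185 and 220 CPM against 26.1 and 20.03 CPM. Of the receptors for inhibitory transmitters, Gabrb1, a GABA-A subunit, was at 534 and 643 CPM against 52.8 and 33.2 CPM, and Glra1, a glycine receptor subunit, at 278 and 293 CPM against 72.0 and 74.5 CPM. The transcription factors past 2-fold included Zfhx4, at 1372 and 1502 CPM against 233 and 184 CPM, and Ebf1, at 719 and 782 CPM against 22.3 and 12.8 CPM.

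The 15 genes furthest above the other bipolar clusters by the rule for named genes were Ncam2, Nxph1, Neto1, Tacr3, Ebf1, Chrnb3, Lamp5, Galntl6, Slit2, Tmeff2, Nkain3, Pde1a, Kcnh7, Erbb4 and Adcy8. Ncam2, a neural cell adhesion molecule, was at 646 CPM (606 to 687) in Ptbp1-Ctrl and 836 CPM (789 to 886) in Ptbp1-KO against 13.1 and 10.5 CPM, a log2 difference of 5.63 and 6.31. Nxph1, a secreted ligand of neurexins, was at 1555 and 1836 CPM against 37.3 and 21.6 CPM. Slit2, the secreted guidance ligand of Robo receptors, was at 5900 and 6199 CPM against 209 and 141 CPM. Tacr3, the neurokinin B receptor, was at 347 and 391 CPM against 9.32 and 6.11 CPM.

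All 15 were above every other bipolar cluster in both libraries. For 13 of them cluster 21 came next in both libraries, and over all 15 genes cluster 9 was 1.85 to 9.03 times cluster 21. Cluster 21 was also the cluster whose profile was most like that of cluster 9, with a Pearson correlation across genes of 0.851 in Ptbp1-Ctrl and 0.805 in Ptbp1-KO (4708 and 4811 genes, which are not independent replicates), followed by clusters 11 (0.824 and 0.803) and 18 (0.810 and 0.773). The least like was cluster 10 (0.596 and 0.553). The points of each correlation share their libraries.

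**Figure D1:**
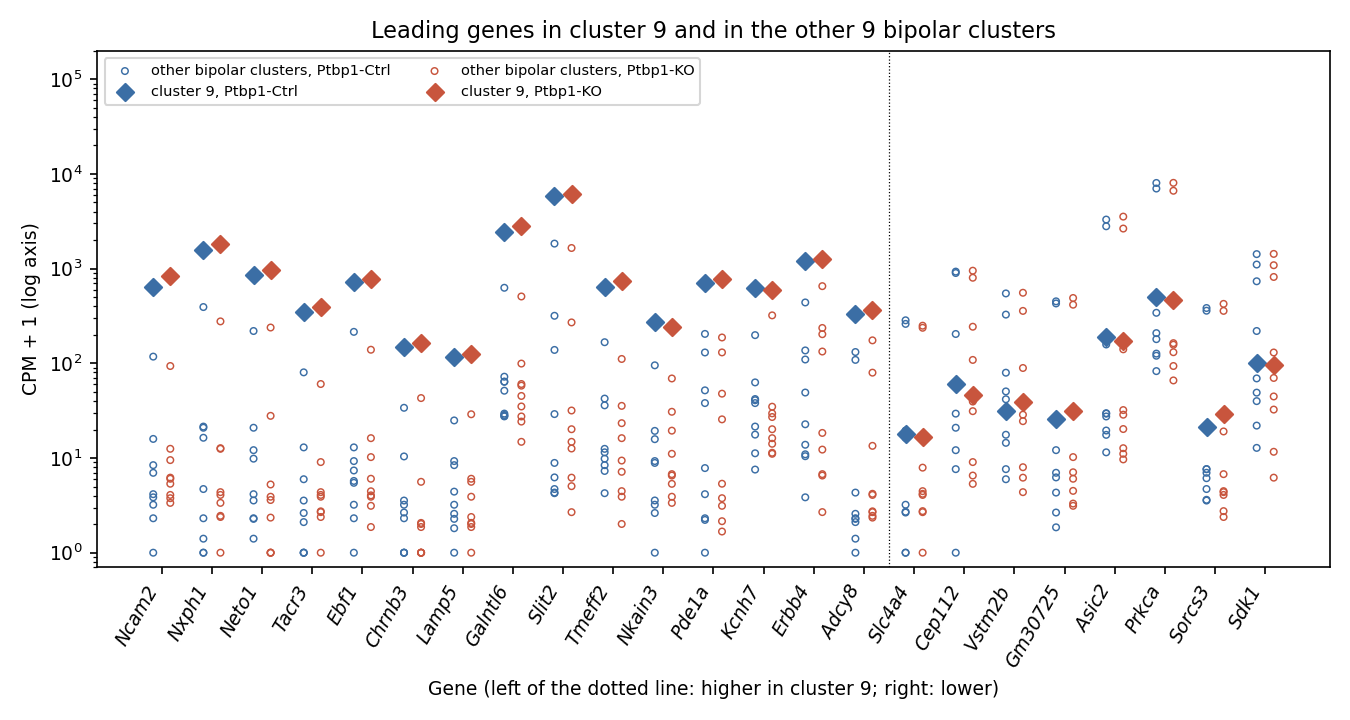
Levels (CPM + 1, log axis) of the 15 genes furthest above and, right of the dotted line, the 8 furthest below the other bipolar clusters. Filled diamonds stand for cluster 9 and open circles for each of the other 9 bipolar clusters, in blue for Ptbp1-Ctrl and red for Ptbp1-KO. All 15 were highest in cluster 9 in both libraries.

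At the other end, the 8 genes with the largest difference below the other clusters were Slc4a4, Cep112, Vstm2b, Gm30725, Asic2, Prkca, Sorcs3 and Sdk1. Slc4a4, a sodium bicarbonate cotransporter, was at 17.01 CPM in the control and 15.7 CPM in the knockout against 107 and 104 CPM. Asic2, an acid-sensing ion channel, was at 190 and 173 CPM against 1114 and 1186 CPM. For all 8 the highest bipolar cluster was 5 or 10 in both libraries.

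Cluster 9 held more than 1 kind of OFF cone bipolar cell. Leiden clustering of its cells alone at a resolution of 0.2 gave 8 sub-clusters, numbered 0 to 7, each with cells of both libraries. By the markers listed for each type, 4 of them took a name: type 3A-like (sub-cluster 0, 129 cells), type 2-like (sub-cluster 1, 127 cells), type 1A-like (sub-cluster 2, 108 cells) and type 1B-like (sub-cluster 4, 62 cells). The named cells were 426 (62.2%) and the unnamed 259 (37.8%). At a resolution of 0.1 there were 4 sub-clusters, with the 1A-like and 1B-like cells in 1 of them. At 0.5 there were 10, in which the 3A-like cells were divided and 14 cells took the name type 3B-like. The values that follow describe the sub-clusters and are no test of them, since the same genes drew them.

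**Figure D2:**
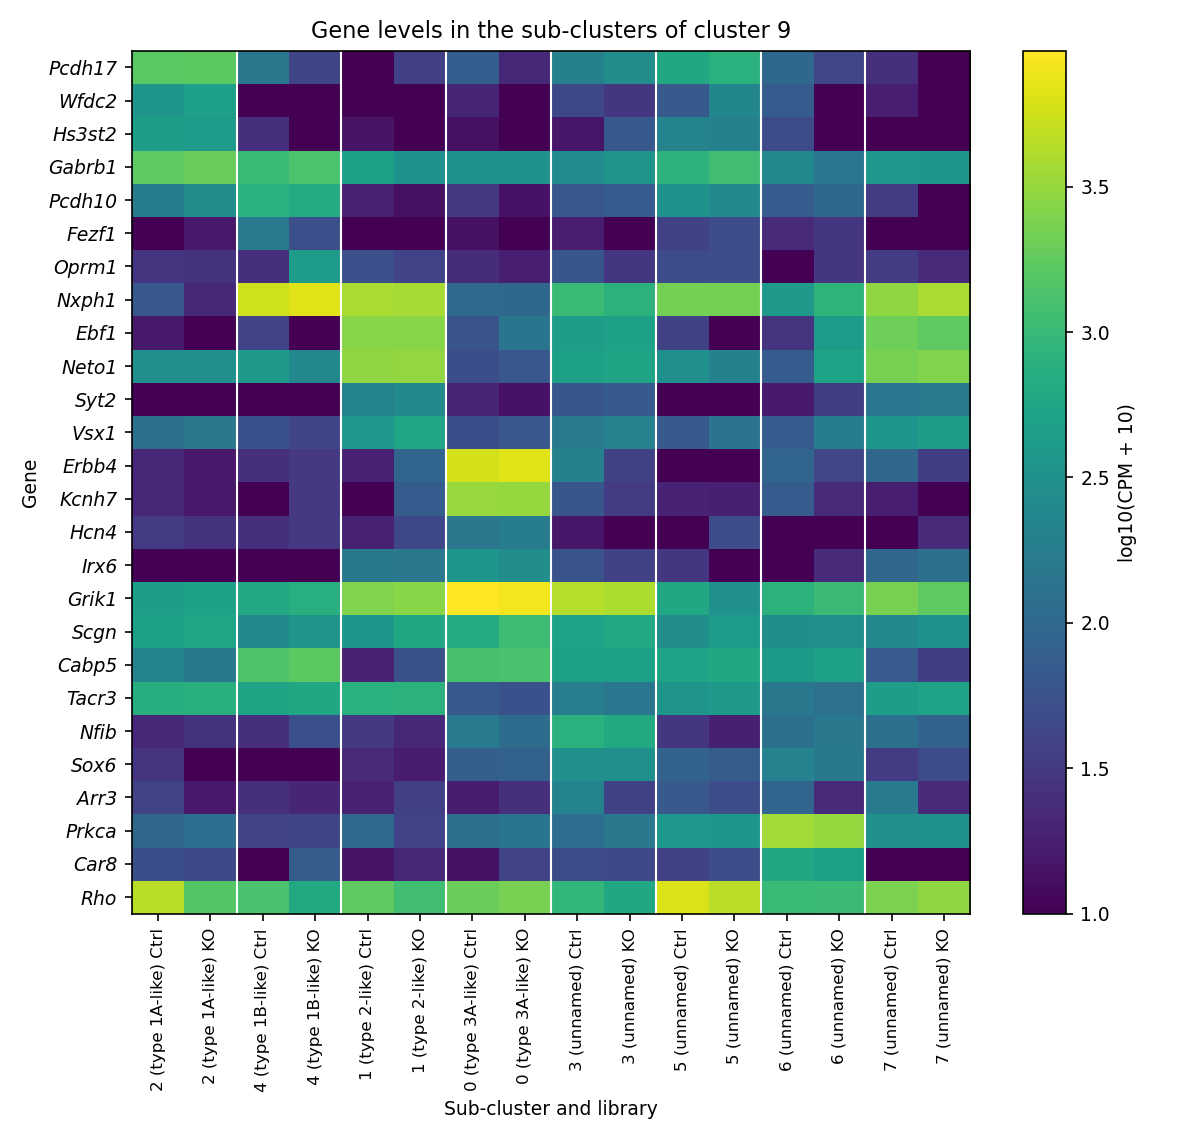
Levels of genes of OFF bipolar types and of other cell types (rows) in the 8 sub-clusters of cluster 9, with a column per library, coloured by log10(CPM + 10). Erbb4 and Kcnh7 were highest in the type 3A-like cells, Ebf1 and Neto1 in the type 2-like cells, Pcdh17 in the type 1A-like cells and Pcdh10 in the type 1B-like cells, in both libraries.

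The type 3A-like cells carried Erbb4, the neuregulin receptor, at 6008 and 6689 CPM in the 2 libraries, where no other sub-cluster exceeded 190 CPM. Kcnh7, a voltage-gated potassium channel, was at 3232 and 3102 CPM, and elsewhere at or below 63.3 CPM. Grik1 was at its highest here, at 9268 and 8186 CPM. Other genes of these cells were Gsg1 (1273 and 1311 CPM), the pacemaker channel Hcn4 (139 and 170 CPM), the Iroquois homeobox factor Irx6 (355 and 282 CPM) and the muscarinic receptor Chrm3 (713 and 569 CPM).

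The type 2-like cells carried the transcription factor Ebf1 at 2723 and 2765 CPM, and Neto1 at 3001 and 3085 CPM, next to 41.7 and 54.2 CPM of Neto1 in the type 3A-like cells. Syt2, a synaptotagmin of type 2 cells, was at 201 and 250 CPM. Vsx1 was at 372 and 555 CPM, and Grik1 at 2547 and 2739 CPM. The cells also held Shisa6, which encodes an AMPA receptor auxiliary subunit, at 424 and 462 CPM, and Chrnb3, a nicotinic receptor subunit, at 467 and 436 CPM. Cabp5 was nearly absent from them, at 8.56 and 44.7 CPM. The ON class markers summed to 2791 and 4185 CPM here. They summed to 1966 and 1876 CPM in the type 3A-like cells and 977 and 792 CPM in the type 1A-like cells.

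The type 1A-like cells carried the protocadherin Pcdh17 at 1598 and 1649 CPM, with Wfdc2 at 356 and 463 CPM, the heparan sulfate sulfotransferase gene Hs3st2 at 446 and 416 CPM and the potassium channel gene Kcnc2 at 338 and 515 CPM. Of the 4 markers listed for type 1A, 3 reached 50 CPM in these cells, and only Pcdh17 was among their 10 leading genes. Gabrb1 was at its highest here, at 1677 and 1961 CPM. Grik1 was lower than in the type 3A-like and type 2-like cells, at 452 and 492 CPM. Nxph1 was at 54.3 and 11.6 CPM here and at 97.4 and 89.0 CPM in the type 3A-like cells, so that this leading gene of cluster 9 as a whole was low in both of these groups.

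The type 1B-like cells were told apart by the protocadherin Pcdh10, at 772 and 664 CPM, with Nxph1 at 5664 and 6594 CPM and the cadherin Cdh10 at 1188 and 1370 CPM. Grik1 was at 602 and 707 CPM, Cabp5 at 1389 and 1638 CPM and Nav3, a neuron navigator protein, at 432 and 492 CPM. These were the shallowest cells, with a median of 2412 UMIs, and rest on 32 cells in Ptbp1-Ctrl and 30 in Ptbp1-KO. Oprm1, the mu opioid receptor, was at 15.4 and 428 CPM here, against 25.6 CPM in the rest of cluster 9 over both libraries. It was named after its values were seen, and its control level rests on few UMIs. Whether a few cells gave the difference was not tested.

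Genes shared across the named groups also differed in level. Slit2 was in all 4, from 4282 CPM in the type 1B-like cells of Ptbp1-KO to 10388 CPM in the type 3A-like cells of Ptbp1-Ctrl. Tacr3 was at 783 and 786 CPM in the type 2-like, 688 and 758 CPM in the type 1A-like and 525 and 589 CPM in the type 1B-like cells, but at 55.7 and 46.4 CPM in the type 3A-like cells. Cntn4, a contactin, went the other way, at 1632 and 1636 CPM in the type 3A-like cells and no more than 157 CPM in each of the other named groups.

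The 4 unnamed sub-clusters met the marker rule of no OFF type and differed in their genes. In Ptbp1-Ctrl and Ptbp1-KO the OFF class markers summed to 5045 and 4825 CPM in sub-cluster 3. They summed to 2895 and 2456 CPM in sub-cluster 7. In sub-clusters 5 (1031 and 967 CPM) and 6 (1177 and 1525 CPM) the sums were near those of the type 1A-like cells (1170 and 1388 CPM). Sub-cluster 3 (99 cells, median 6480 UMIs) held Grik1 at 4299 and 3942 CPM together with the factor Nfib (775 and 620 CPM), the cone channel subunit Cngb3 (494 and 692 CPM) and Sox6 (307 and 302 CPM). Sub-cluster 6 (57 cells, median 5506 UMIs) held genes of rod bipolar and ON cells, with Prkca at 3587 and 3160 CPM, the postsynaptic adhesion protein gene Lrrtm4 at 4745 and 4205 CPM, Grm6 at 550 and 370 CPM and Isl1 at 538 and 616 CPM.

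Sub-clusters 5 (60 cells) and 7 (43 cells) had the largest shares of their UMIs in rod marker genes, 1.46% and 0.832%, next to 0.271% to 0.684% in the named groups. Sub-cluster 7 shared the leading genes of the type 2-like cells, with Ebf1 at 2060 and 1688 CPM and Neto1 at 2260 and 2507 CPM. Both also held Pdzph1, at 703 and 556 CPM in sub-cluster 5 and 643 and 403 CPM in sub-cluster 7. No doublets were called, and whether barcodes of these sub-clusters held more than 1 cell was not tested.

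Erbb4 and Ebf1 were seldom in the same cell as the genes that led other named groups. Pcdh10 was in a minority of the cells with Pcdh17, but in a larger share of them than of the cells without it. Of 668 cells thinned to 1000 UMIs, 145 held an Erbb4 UMI, and 11 of these (7.59%, 3.85 to 13.2) also held one of Neto1, against 230 of the 523 cells without Erbb4 (44.0%, 39.7 to 48.4). Per library the shares were 8.24% and 43.9% in Ptbp1-Ctrl and 6.67% and 44.1% in Ptbp1-KO. Ebf1 and Neto1 went together, with Neto1 in 162 of 183 Ebf1-positive cells (88.5%, 83.0 to 92.8) and in 79 of 485 others (16.3%, 13.1 to 19.9). Pcdh17 was in 2 of the 183 Ebf1-positive cells (1.09%, 0.133 to 3.89) and in 131 of 485 others (27.0%, 23.1 to 31.2). Pcdh10, which led the type 1B-like cells, was in 22 of 133 cells with Pcdh17, which led the type 1A-like cells (16.5%, 10.7 to 24.0), and in 45 of 535 cells without it (8.41%, 6.20 to 11.1).

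Grik1 was in 143 of 145 Erbb4-positive cells (98.6%, 95.1 to 99.8), next to 49 of 133 Pcdh17-positive cells (36.8%, 28.6 to 45.6). For background, in another thinning to the same depth the other bipolar clusters held Neto1 in 0.818% and 0.947%, Ebf1 in 0.781% and 0.451%, Erbb4 in 2.97% and 3.52% and Pcdh17 in 6.28% and 6.04% of their cells. The share of Erbb4-positive cells with Neto1 was above that background, and the share of Ebf1-positive cells with Pcdh17 below it. Without thinning, 17.8% of Erbb4-positive cells held Neto1.

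**Figure D3:**
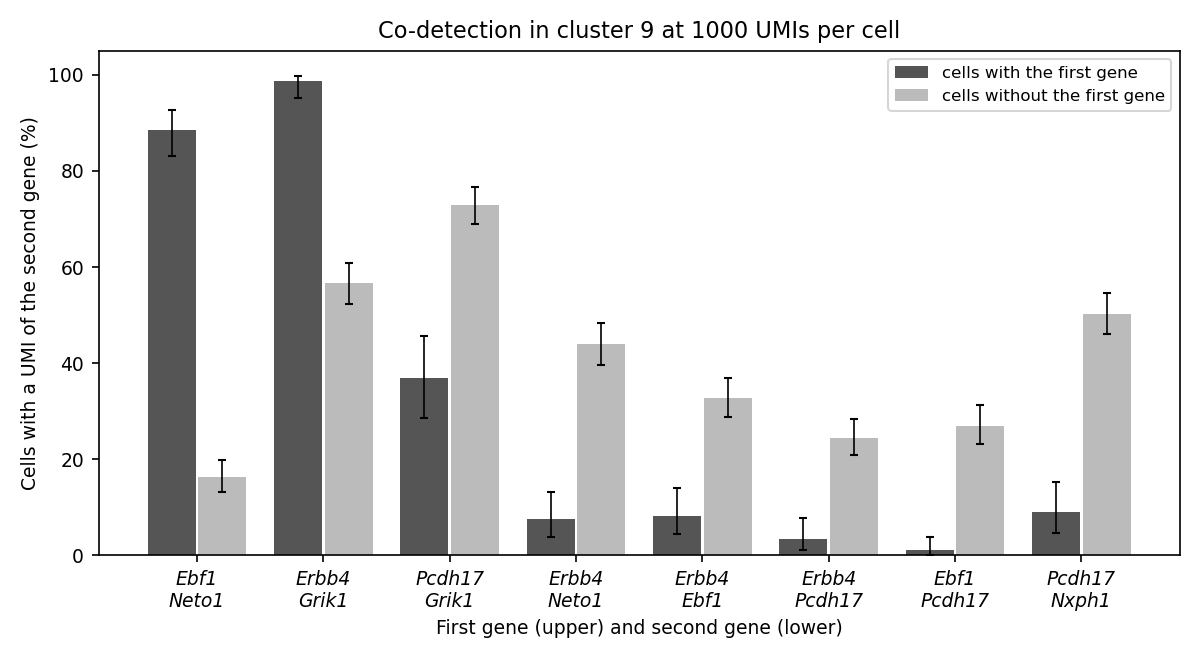
Share of cells of cluster 9 (percent, at 1000 UMIs a cell, both libraries together) with a UMI of the lower-named gene, among cells with (dark bars) and without (light bars) a UMI of the upper-named gene, with 95% binomial intervals. Neto1 was in 88.5% of Ebf1-positive and 7.59% of Erbb4-positive cells.

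The comparison of genotypes asked what cells of this kind looked like after their progenitors lost Ptbp1. Cluster 9 made up 12.2% of the bipolar cells in Ptbp1-Ctrl (390 of 3194, 11.1 to 13.4) and 11.6% in Ptbp1-KO (295 of 2549, 10.4 to 12.9), a ratio of 0.948 (0.822 to 1.09). No difference in its share was detectable at these cell numbers.

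Shares of the sub-clusters were compared by their intervals only. The type 3A-like cells were 18.5% of cluster 9 in Ptbp1-Ctrl and 19.3% in Ptbp1-KO, the type 2-like 17.4% and 20%, the type 1A-like 15.4% and 16.3% and the type 1B-like 8.21% and 10.2%. The unnamed sub-cluster 3 was 16.2% and 12.2%, and sub-cluster 7 was 7.44% and 4.75%. All 8 pairs of intervals overlapped, which does not show that the shares were equal. The unnamed cells together were 40.5% (35.6 to 45.6) of cluster 9 in Ptbp1-Ctrl and 34.2% (28.8 to 40.0) in Ptbp1-KO.

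**Figure D4:**
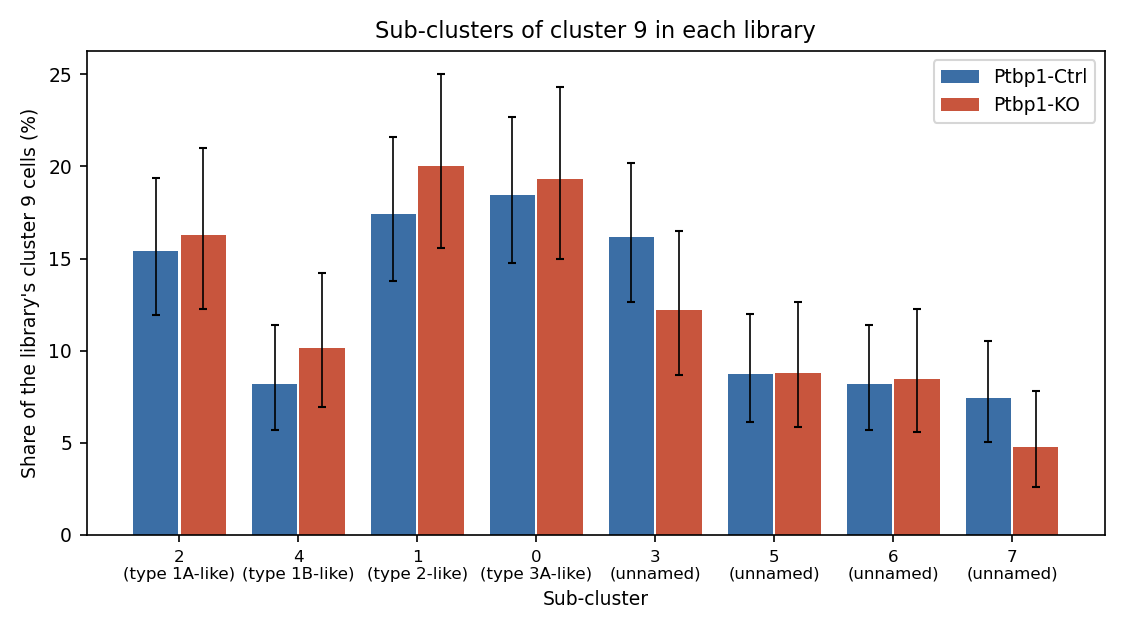
Share of the cells of cluster 9 (percent) in each of its 8 sub-clusters, in Ptbp1-Ctrl (390 cells) and Ptbp1-KO (295 cells), with 95% binomial intervals. The intervals of the 2 libraries overlapped for each sub-cluster.

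Ptbp1 (mm10 chromosome 10, 79854427 to 79864771), the splicing repressor targeted here, had 33 UMIs in cluster 9 of Ptbp1-Ctrl (21.6 CPM, 14.9 to 30.3) and 0 in that of Ptbp1-KO, which is at least 10.1-fold lower when 3 counts per library stand for 0. The 3′ tags of the assay lie outside the deleted promoter and first exon, so they count what transcript was left. At 1000 UMIs 8 of 379 control cells held a UMI (2.11%) and 0 of 289 knockout cells, which allows a share of up to 1.04% at 3 counts, with an exact binomial bound of 1.27%. In the other bipolar clusters Ptbp1 was at 20.7 and 0.113 CPM. Ptbp2, the neuronal paralog, was at 218 CPM (195 to 243) and 185 CPM (163 to 209), a log2 ratio of Ptbp1-KO over Ptbp1-Ctrl of -0.24 (-0.48 to 0.00), and Ptbp3 at 17.01 and 14.97 CPM.

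Most genes of cluster 9 lay close together in the 2 libraries. Of 5549 genes with at least 100 UMIs over both, 179 (3.23%) differed by more than 1.5-fold, 78 (1.41%) of them higher and 101 (1.82%) lower in Ptbp1-KO, and 18 (0.324%) by more than 2-fold, 7 (0.126%) of them higher and 11 (0.198%) lower. The median log2 ratio was -0.0048 and the 5th to 95th percentiles ran from -0.42 to 0.42.

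Over the 14 gene lists together 8 of 247 genes passed 1.5-fold (3.24%), near the 3.23% of all genes. None of the 11 ionotropic glutamate receptor genes with enough counts, 8 genes of the mGluR6 cascade, 18 ribbon synapse genes, 15 genes for calcium channels and calcium binding, 14 genes for potassium and HCN channels, 6 neuromodulator receptor genes or 15 neuronal splicing regulators passed 1.5-fold. Their median log2 ratios lay from -0.12 to 0.12.

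Of the markers of these cells, Grik1 had a log2 ratio of -0.22 (-0.28 to -0.17), Vsx1 of 0.51 (0.26 to 0.76), Scgn of 0.46 (0.31 to 0.60) and Cabp5 of 0.13 (-0.01 to 0.28), all within 1.5-fold. Scgn was higher in Ptbp1-KO in each of the 8 sub-clusters, with an interval above 0 in the type 3A-like cells (658 and 1083 CPM, log2 ratio 0.72, 0.45 to 0.99) and the type 2-like cells (364 and 578 CPM, 0.67, 0.28 to 1.07). When all cells were thinned to 1000 UMIs the Scgn ratio was 0.15.

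**Figure D5:**
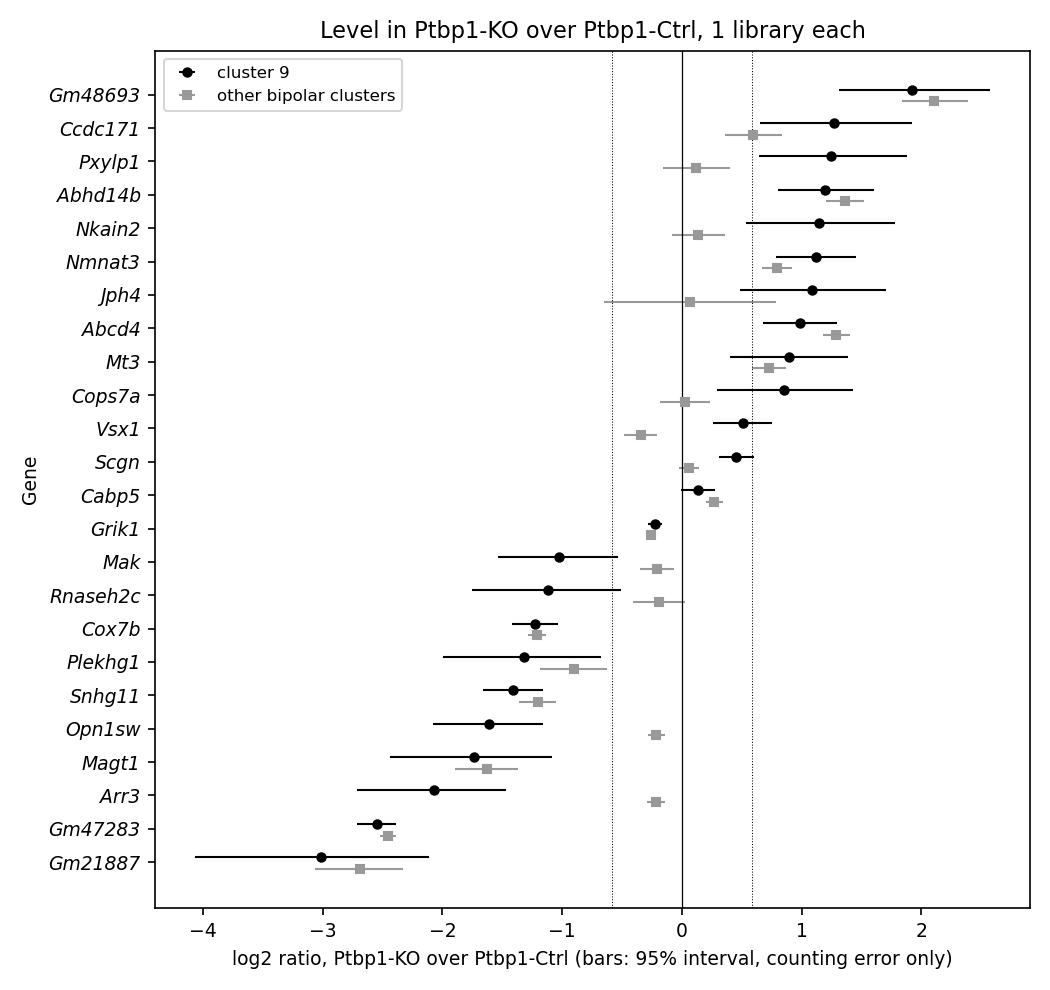
log2 ratio of Ptbp1-KO over Ptbp1-Ctrl in cluster 9 (black circles) and the other bipolar clusters (grey squares) for the 10 highest and 10 lowest genes and 4 markers of these cells, with 95% counting intervals and dotted lines at 1.5-fold. Arr3 and Opn1sw had lower ratios in cluster 9 (-2.07 and -1.61) than in the other bipolar clusters (-0.22 and -0.21), whereas Snhg11 was at -1.41 and -1.20.

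Named by the size of their ratio were the 10 highest and the 10 lowest genes. The highest were Gm48693, Ccdc171, Pxylp1, Abhd14b, Nkain2, Nmnat3, Jph4, Abcd4, Mt3 and Cops7a, with log2 ratios from 1.92 for Gm48693 to 0.85 for Cops7a. Nmnat3 (chromosome 9, 98287435 to 98420438), an enzyme of mitochondrial NAD synthesis, went from 73.3 CPM in the control to 159 CPM in the knockout cells (log2 ratio 1.12, 0.78 to 1.46), where the other bipolar clusters gave 0.79 (0.67 to 0.92). Within cluster 9 its level was highest in the type 1A-like cells, at 259 and 555 CPM. Abcd4, a transporter in cobalamin metabolism, was at 89.6 and 178 CPM with a ratio of 0.99 (0.68 to 1.30), next to 1.29 (1.18 to 1.40) in the other clusters, and Abhd14b, an alpha/beta hydrolase, was at 51.0 and 117 CPM with a ratio of 1.20 (0.80 to 1.61), next to 1.36 (1.20 to 1.52).

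For Jph4, Pxylp1, Nkain2 and Cops7a the ratios in the other bipolar clusters (0.07, 0.12, 0.14 and 0.03) had intervals that held 0. These genes were named by their ratios in cluster 9, and the intervals do not cover that choice. Jph4, a junctophilin that ties the plasma membrane to the endoplasmic reticulum, was at 23.5 and 49.9 CPM in cluster 9 (36 and 70 UMIs, log2 ratio 1.08, 0.48 to 1.71) and at 3.995 and 4.19 CPM in the others. Pxylp1, a phosphatase that acts on proteoglycan chains, was at 22.2 and 52.8 CPM (34 and 74 UMIs, 1.25, 0.64 to 1.88), against 23.7 and 25.8 CPM.

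The lowest ratios belonged to Gm21887, Gm47283, Arr3, Magt1, Opn1sw, Snhg11, Plekhg1, Cox7b, Rnaseh2c and Mak. Snhg11 (chromosome 2, 158375638 to 158386145), a snoRNA host gene, was at 342 CPM (523 UMIs) in Ptbp1-Ctrl and 129 CPM (181 UMIs) in Ptbp1-KO (log2 ratio -1.41, -1.66 to -1.16). It was lower in 7 of 8 sub-clusters, with an interval below 0 in 6, and at its lowest ratio in the type 2-like cells (437 and 101 CPM, -2.12, -2.79 to -1.49). The exceptions were the type 1B-like cells (185 and 107 CPM), whose interval held 0, and sub-cluster 5 (154 and 185 CPM). Cells with a Snhg11 UMI at 1000 UMIs were 26.6% in Ptbp1-Ctrl and 11.8% in Ptbp1-KO, against 9.48% and 4.69% in the other bipolar clusters.

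Cox7b (chromosome X, 106015700 to 106022450), a subunit of mitochondrial complex IV, was at 507 and 217 CPM with a ratio of -1.23 (-1.42 to -1.03), and Magt1 (chromosome X, 105968084 to 106011906), which takes part in magnesium transport and glycosylation, at 59.5 and 17.8 CPM with a ratio of -1.74 (-2.44 to -1.09). In the other bipolar clusters their ratios were -1.21 (-1.29 to -1.13) and -1.63 (-1.90 to -1.37). Gm47283 on chromosome Y, at 1518 and 260 CPM, and Gm21887 on chromosome X, at 63.4 and 7.84 CPM, had ratios of -2.55 and -3.02. Both lie near the ends of the sex chromosomes, where near-identical copies can share reads, so how their counts were divided is uncertain.

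Cone genes had lower counts in Ptbp1-KO. The 4 cone genes with enough counts all passed 1.5-fold downwards, where 1.82% of all genes did, with a median log2 ratio of -1.23, and the sum of the cone list was 436 and 188 CPM. Arr3, cone arrestin, had 128 and 28 UMIs (log2 ratio -2.07, -2.71 to -1.47), and Opn1sw, the short-wave cone opsin, 176 and 53 (-1.61, -2.08 to -1.16). Of the control UMIs 118 and 164 came from the unnamed sub-clusters. In the named sub-clusters Arr3 had 10 and 13 UMIs and Opn1sw 12 and 21, with ratios of 0.30 and 0.73, so the lower counts of these cone genes lay in the unnamed sub-clusters. The rod list, 6 genes of which 1 passed 1.5-fold (Nrl, -0.66, -0.96 to -0.38), summed to 6005 and 4961 CPM in cluster 9 and 8005 and 7003 CPM in the other bipolar clusters. Its sum was lower in Ptbp1-KO in 5 and higher in 3 of the 8 sub-clusters.

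Of the lists that follow, 1 of 29 adhesion genes, 2 of 22 transcription factors and 1 of 11 GABA and glycine receptor genes passed 1.5-fold downwards, where 1.82% of all genes did, and none upwards. Lrrtm3, a synaptic adhesion protein, had a log2 ratio of -1.02 (-1.37 to -0.68) and was at 149 and 73.4 CPM, with -0.80 (-0.98 to -0.62) in the other bipolar clusters. The factors Nfib (252 and 158 CPM, -0.68, -0.92 to -0.43) and Nfia (197 and 131 CPM, -0.59, -0.86 to -0.32) and the GABA receptor subunit gene Gabrr3 (81.8 and 47.8 CPM, -0.78, -1.23 to -0.34) were lower. Nfib was highest in sub-cluster 3 (775 and 620 CPM), as was Gabrr3 (278 and 187 CPM), which was 16.2% of the control and 12.2% of the knockout cells. The part of that sub-cluster in these ratios was not tested. In the named sub-clusters only, the Gabrr3 ratio changed sign, on few UMIs.

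On the higher side, where 1.41% of all genes passed 1.5-fold, were 2 of 13 genes of the mitochondrial genome, mt-Atp8 at 277 and 463 CPM (0.74, 0.56 to 0.92) and mt-Nd3 at 213 and 342 CPM (0.68, 0.48 to 0.89), with 0.61 and 0.64 in the other bipolar clusters. Of 80 ribosomal protein genes 2 passed, no more than the 3.23% of all genes would give, Rps18 upwards (0.65) and Rpl29 downwards (-0.81), with 0.53 and -1.08 in the other clusters. Of 3 Müller glia markers with enough counts 1 passed 1.5-fold, Apoe downwards, at 41.9 and 27.1 CPM (-0.63, -1.25 to -0.03). The median log2 ratio of the 3 was -0.018 and the highest 0.087.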

How the data were processed

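The authors prepared 10x Genomics 3′ v3.1 libraries, aligned reads to mm10 and counted them with Cell Ranger 7.0.1, filtered and clustered the cells in Seurat 4 and named cell types. The deposited values were raw UMI counts per gene and cell for 25778 genes, and the deposited percent was the mitochondrial share per cell. A further 2 columns of per-cell values were not used. Annotation and treatment of intronic reads were not given in the sources used here. Gene positions are from GENCODE vM21.

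UMIs were summed per library and expressed as CPM, with exact Poisson intervals for levels, conditional binomial intervals for ratios and Clopper-Pearson intervals for shares. Cells were thinned to 1000 UMIs for shares, which left out 11 Ptbp1-Ctrl and 6 Ptbp1-KO cells. Sub-clusters came from Leiden clustering (scanpy 1.11.5, 1000 variable genes, 12 principal components, 15 neighbours). A name needed at least 3 listed markers at 50 CPM or more and 1 among the 10 leading genes. No doublet caller was run. Genes compared between genotypes had at least 100 UMIs over both libraries, and a gene past 1.5-fold was counted. Named genes were the members of the lists, the 15 highest and 8 lowest of cluster 9 over the other bipolar clusters at 100 CPM or more, ranked by the smaller difference of both libraries, the 10 highest and 10 lowest ratios between genotypes, and Ptbp1, Xist and 4 Y-linked genes. Genes that lead a sub-cluster were named after their values were seen. Members and lists were chosen with earlier results of these data known. The study's Wilcoxon test over cells was not used, since cells are not replicates. Factors from edgeR 4.0.16 (TMM) and DESeq2 1.42.0 (size factors) were used as alternative scalings. The scripts were tested on simulated data. The result of 1 gene is not reported here.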

Additional observations from a re-analysis of the deposited data

How the results depend on the processing

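No paired analysis was possible because each genotype had 1 library. The numbers of genes past 1.5-fold, 78 higher and 101 lower in Ptbp1-KO, became 7 and 11 at 2-fold, 702 and 685 at a minimum of 20 UMIs, 11 and 16 at 300 UMIs, 444 and 527 with cells thinned to 1000 UMIs, and 201 and 217 with the profile of each library's cells subtracted as free RNA. Lower minimums and thinning leave fewer UMIs a gene. For the other alternatives the cause was not tested. TMM and size factor scaling moved all ratios by 0.0047 and 0.0048 on the log2 scale.

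Against the highest other bipolar cluster in place of their sum, 18 genes were 2-fold higher and 761 lower in cluster 9, in place of 100 and 103, and Grik1 was at -1.62 on the log2 scale. With the library profile subtracted 166 genes were lower, and at a minimum of 50 CPM 168 were higher. Without thinning, 17.8% of Erbb4-positive cells held Neto1.

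In the named sub-clusters only, an alternative chosen after seeing the data, 61 genes were higher and 80 lower of 3303, of which 17 and 18 were also among those of all cells. The median of the cone list (0.057) and the ratios of Arr3 (0.30), Opn1sw (0.73) and Gabrr3 (0.83) then changed sign, on few UMIs. Leaving out cluster 21, also chosen after seeing the data, gave 106 higher and 106 lower genes. Of the values of single genes and lists, 480 moved by less than their counting error and 109 by more. A further 5, which lay past 1.5-fold, or past 2-fold between clusters, changed sign. Sign changes of smaller values were not counted apart.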

Other observations

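Some of the genes named by the size of their ratio between genotypes lay near each other in mm10. Magt1 and Cox7b, both lower in Ptbp1-KO, are separated by 3793 bases on chromosome X. Pxylp1 and Nmnat3, both higher in Ptbp1-KO, are 1394765 bases apart on chromosome 9. Of the 20 genes, 4 were on chromosome X, 3 on chromosome 9 and 1 on chromosome Y. These are values only, and no test of position was made.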
